A study of Mus musculus with 24 samples.

Results

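The 43 genes examined here encode the nuclear receptor PPARα, its partner regulator CREB3L3, and liver enzymes and transporters of fatty acid oxidation and ketone body metabolism, many of which are known PPARα targets. They were taken by gene name from the 54733 genes of the deposited tables, each name was found once, and all 43 were among the 11244 genes whose mean reached a level of 1 FPKM or more (FPKM are fragments scaled to transcript length and to the mapped fragments of the library). Poly(A)-tailed RNA was sequenced in 24 libraries of livers of male C57BL/6 mice, 12 wild-type (WT) and 12 ΔRRE. Each genotype had 2 libraries at every one of 6 circadian times (CT), 4 h apart from CT2 to CT22. The ΔRRE mice lack both RREs (elements bound by RORs and REV-ERBs) of the clock gene Bmal1 on both alleles and in every cell, and the study's methods name 1 mutant line as the one used unless stated otherwise. Tissues were collected in constant darkness at projected times, with chow always available. The study's methods give a range of ages for its tissue collections, the labels give none for a library, and they do not say whether the 2 libraries of a group share a litter or a day.

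PPARα is activated by fatty acids and, as a heterodimer with RXR, raises the transcription of genes that take up, activate and oxidise them. In fasting, long-chain fatty acids enter the liver mitochondrion through the carnitine shuttle and pass through β-oxidation, and the acetyl-CoA formed is largely turned into ketone bodies. Peroxisomes shorten very long and branched chains, and microsomal Cyp4a enzymes begin oxidation from the ω end. In liver, several of these genes are known to follow both the circadian clock and feeding.

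The labels were checked against Bmal1 itself, listed as Arntl. In WT it ran from 0.195 and 0.0919 FPKM at CT10 to 12.6 and 13.2 FPKM at CT2, and in ΔRRE all 12 libraries lay between 2.096 and 4.21 FPKM. Its rhythm differed between the genotypes by limma's test of both wave terms (adjusted p = 0.0463, exact permutation p = 4.29e-05, which no other division of the libraries could undercut). The hepatocyte marker list was high in every library (7 of 8 genes found by name, summed level 34430 to 51992 FPKM, Alb the most abundant with a mean of 27420 FPKM). The summed markers of adipocytes stayed at or below 3.17 FPKM, those of enterocytes at or below 0.249 FPKM and those of pancreatic acinar cells at or below 1.08 FPKM, and 1, 3 and 3 of 5 genes of these lists were at 0 in every library. The 4 lymphocyte markers summed to at most 2.66 FPKM. Kupffer cell markers summed to between 14.1 and 99.9 FPKM, and averaged 45.5 ± 24.2 FPKM over the WT libraries and 42.4 ± 11.0 FPKM over the ΔRRE ones (SD, n = 12 each), and endothelial, stellate and cholangiocyte markers had medians of 27.6, 56.6 and 29.3 FPKM. The 5 erythroid genes, led by Hbb-bs, summed to 4322 FPKM in ΔRRE CT10 replicate 1 and 4451 FPKM in ΔRRE CT14 replicate 1 and to at most 2062 FPKM in the other libraries. They averaged 958 ± 362 FPKM in the WT libraries and 1728 ± 1295 FPKM in the ΔRRE ones (SD, n = 12 each). The 4 globin genes Hba-a1, Hba-a2, Hbb-bs and Hbb-bt were higher in ΔRRE, with log2 fold changes from 0.67 to 0.73, and differed in rhythm, at an unadjusted p under 0.05 and not after adjustment; their part in the results below was not tested. In bulk liver, fewer cells of a type and less RNA per cell cannot be told apart.

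A promoter sequence is shown for the few genes in which a binding motif of PPARα or of the clock was found. RefSeq windows of GRCm38.p6, from 250 bases before to 50 bases after the start of a gene, were held for 33 of the 43 genes and were searched on both strands. A PPAR response element was searched as AGGNCA followed, after 1 base, by AGGNCA, a RORE core as NTAGGTCA, an E-box as CACGTG, a D-box as TTATGTAA and a CRE as TGACGTCA. The capitals mark the match, which in Fabp1 is the reverse complement of the letters searched:
Fabp1, PPAR response element, chr6:71199805-71199830, forward strand: caatcacTGACCTATGGCCTatatct
Acadvl, RORE core, chr11:70015501-70015526, reverse strand: tggatcaccCTAGGTCAggtagaata
Acot4, E-box, chr12:84038303-84038328, forward strand: ttcacaacacCACGTGggagtggcga
Aldh3a2, E-box, chr11:61267201-61267226, reverse strand: gcctcatagtCACGTGcagcagctca

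The matches began 67, 89, 66 and 30 bases before the RefSeq start. In the GENCODE annotation of GRCm38, Fabp1 starts at 71199827, inside the stretch shown, and the Aldh3a2 match lies within the gene, whose start on the reverse strand is at 61267464. The Fabp1 match was the only one to the PPAR response element letters in the windows of these 33 genes, and 0.381% of all 32851 RefSeq windows held one. The same bases of Fabp1 also held a RORE core, in the same orientation as the element and overlapping it. A RORE core was present in 2.59% of all windows, an E-box in 7.15%, a D-box in 0.938% and a CRE in 1.79%; the latter 2 were in none of these 33 genes. A match describes the letters only, and its absence does not exclude an element with other letters or outside the window. Genes without a window, among them Cyp4a10, Cyp4a14, Angptl4 and Vnn1, were not searched.

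The levels of the genes spanned a wide range. Fabp1, the liver fatty acid binding protein, had a mean of 4103 FPKM and alone made up 46.9% of the summed level of the 43 genes. It was followed by Acaa1b, a peroxisomal thiolase (671 FPKM), Acaa2, the mitochondrial thiolase (509 FPKM), and Etfb, a subunit of the electron transfer flavoprotein (341 FPKM). The mean lay over 100 FPKM for 16 genes, between 10 and 100 FPKM for 23 and under 10 FPKM for 4, the lowest being Pdk4 (4.32 FPKM) and the thioesterase Acot3 (1.96 FPKM). Together the 43 genes took from 1.21% to 1.96% of the FPKM of a library. The number of reads behind an FPKM value is unknown here, so no counting error is given.

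To ask whether the genes were rhythmic in liver, a 24 h cosine wave shared by both genotypes was fitted to log2(FPKM + 0.1), and its terms were tested with limma over all genes. The wave had an adjusted p under 0.05 for 15 of the 43 genes (34.9%), close to the 30.6% of all genes tested. With an unadjusted p under 0.05 it was 19 genes (44.2%) against 42.1%. The median fitted amplitude, which is the log2 distance from mean to peak, was 0.17 over the 43 genes and 0.17 over all genes. These shares lay near those of liver genes in general. With time as a factor Decr2, Echs1, Ehhadh, Hsd17b4 and Ppara lost the call, with separate waves all of these but Decr2 did, and without the filter or the trend Hsd17b4 and Ppara did. By peak time, in windows chosen after the peaks were seen, 6 of the 15 genes peaked between CT10 and CT16, namely Cpt1a, Decr2, Eci2, Ppara, Creb3l3 and Pex11a, and 8 between CT20 and CT3, namely Acot1, Crat, Acsl1, Pdk4, Hsd17b4, Ehhadh, Acat1 and Etfdh. Echs1, with a small wave, peaked at CT6.55. Counted by 12 h, 7 of the 43 (16.3%) peaked from CT6 to CT18, against 14.8% of all genes, and 8 (18.6%) from CT18 to CT6, against 15.8%. The share of all genes in the narrower windows was not counted, so the grouping by phase is not shown to be particular to these genes.

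**Figure D1:**
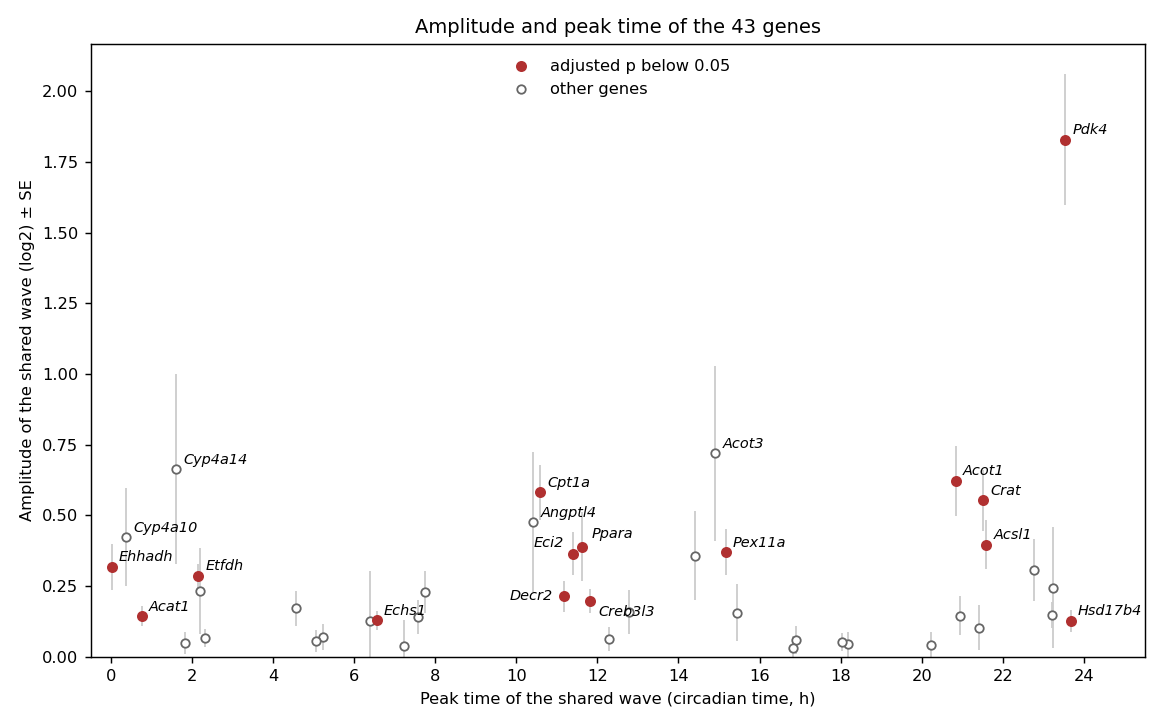
Fitted peak time (horizontal axis, circadian time in h) and amplitude of the shared 24 h wave (vertical axis, log2 scale, bars ± SE) of the 43 genes; filled points are the 15 genes with an adjusted p under 0.05. Pdk4 stands highest, at 1.83. Except for Echs1, at CT6.55, the filled points lie between CT10 and CT16 or between CT20 and CT3, windows chosen after the peaks were seen.

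Among the regulators, Ppara mRNA had its highest means at CT10 and CT14 but varied widely between the libraries of a group. In WT it measured 12.1 and 35.7 FPKM at CT2, 23.9 and 22.8 at CT6, 62.4 and 27.1 at CT10, 35.8 and 52.2 at CT14, 23.7 and 29.5 at CT18, and 19.6 and 25.3 FPKM at CT22. In ΔRRE it measured 29.5 and 20.01 FPKM at CT2, 33.2 and 24.0 at CT6, 26.1 and 41.4 at CT10, 25.8 and 40.4 at CT14, 17.4 and 22.2 at CT18, and 21.6 and 31.0 FPKM at CT22. The genotypes overlapped in range, and the highest single value, in WT at CT10, stood far above its replicate. The shared amplitude was 0.39 (SE 0.12) with a peak at CT11.6 (SE 1.20 h), just past the threshold (adjusted p = 0.0480 in limma's test). Leaving out 1 library at a time removed this call in 16 of 24 fits (adjusted p from 0.0230 to 0.104). Creb3l3, a liver transcription factor that is induced by fasting and acts with PPARα, peaked at CT11.8 with a small amplitude of 0.20 (SE 0.04, adjusted p = 0.00412 in limma's test). It had 143 and 140 FPKM in WT and 159 and 143 FPKM in ΔRRE at CT10 against 95.3 and 99.8 FPKM in WT and 118 and 120 FPKM in ΔRRE at CT2. The ΔRRE replicates were further apart at CT6, with 132 and 95.8 FPKM, and at CT14, with 158 and 129 FPKM.

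**Figure D2:**
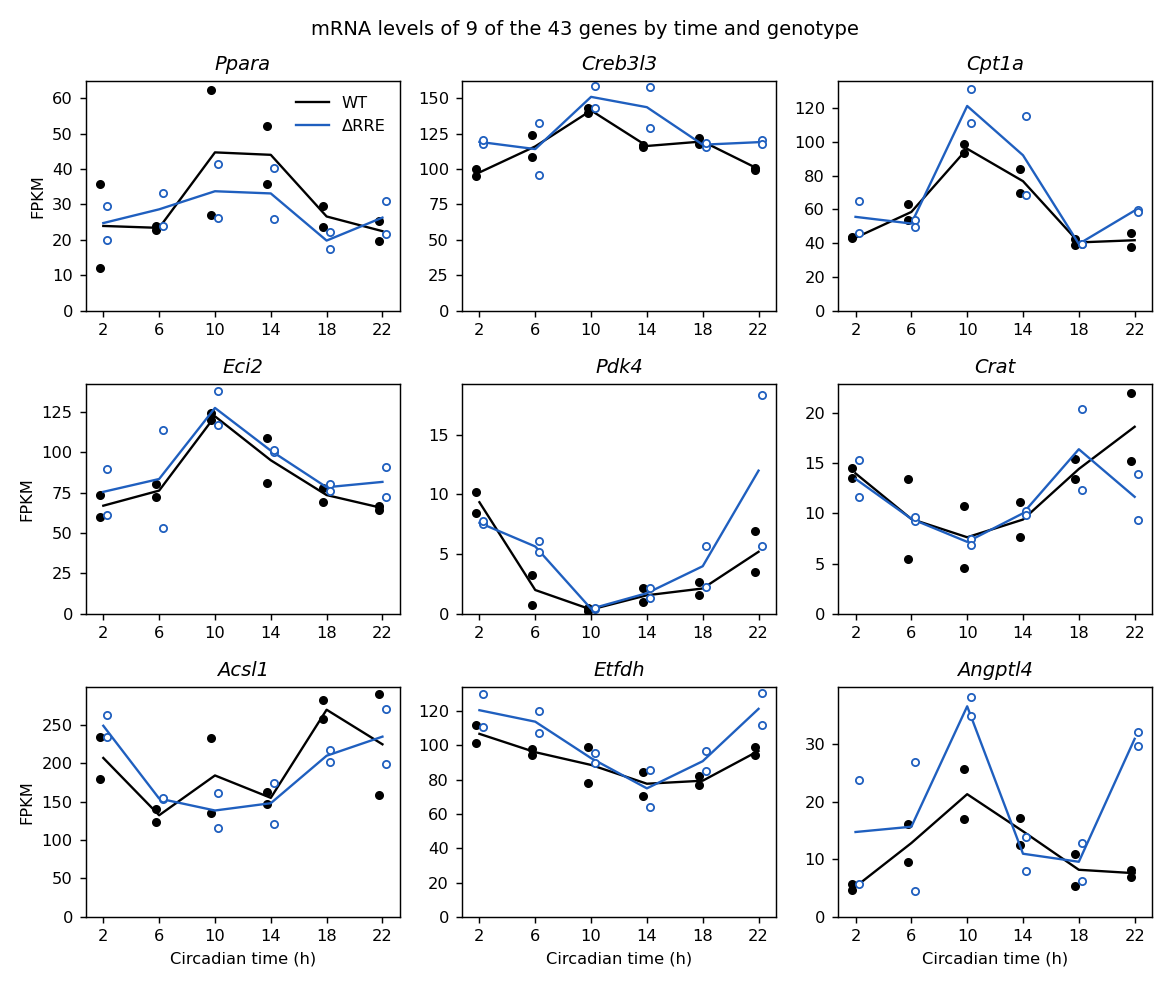
FPKM (vertical axes, from 0) of 9 of the genes against circadian time (horizontal axes, h) in WT (black, filled) and ΔRRE (blue, open); points are single libraries and lines join the means of 2. Cpt1a, Eci2 and Creb3l3 have their highest means at CT10 in both genotypes, and Pdk4 has its lowest there. The libraries of a group lie far apart in places, as for Ppara in WT at CT10, Angptl4 in ΔRRE at CT6 and Pdk4 in ΔRRE at CT22.

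The carnitine shuttle held genes of opposite phase. Cpt1a, the outer-membrane carnitine palmitoyltransferase that controls entry of fatty acids into mitochondria, measured 42.98 and 43.5 FPKM at CT2 in WT, 63.1 and 54.0 at CT6, 98.8 and 93.2 at CT10, 69.7 and 83.9 at CT14, 42.2 and 38.7 at CT18, and 37.6 and 45.9 FPKM at CT22. In ΔRRE it measured 65.0 and 46.2 FPKM at CT2, 53.7 and 49.6 at CT6, 111 and 132 at CT10, 116 and 68.7 at CT14, 39.7 and 39.4 at CT18, and 60.0 and 58.7 FPKM at CT22. In both genotypes CT10 stood above every other time except 1 ΔRRE library at CT14. The highest group mean was 2.37 times the lowest in WT and 3.07 times in ΔRRE, and the shared wave had an amplitude of 0.58 (SE 0.10) and a peak at CT10.6 (adjusted p = 0.000401 in limma's test).

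Crat, carnitine acetyltransferase, and Acsl1, which activates long-chain fatty acids to acyl-CoA, had fitted peaks about opposite to that of Cpt1a. Crat had 10.7 and 4.53 FPKM in WT at CT10 against 22.0 and 15.3 FPKM at CT22, and in ΔRRE 7.47 and 6.86 FPKM at CT10 against 20.5 and 12.4 FPKM at CT18 and 9.34 and 14.0 FPKM at CT22. Its shared amplitude was 0.55 (SE 0.11) with a peak at CT21.5 (adjusted p = 0.00160 in limma's test). Acsl1 had 124 and 141 FPKM in WT at CT6, 233 and 136 FPKM at CT10, 282 and 258 FPKM at CT18 and 159 and 291 FPKM at CT22, so that its WT replicates at CT10 and CT22 were far apart, and in ΔRRE 162 and 116 FPKM at CT10 and 271 and 199 FPKM at CT22. Its amplitude was 0.40 (SE 0.09) with a peak at CT21.6 (adjusted p = 0.0042 in limma's test). The remaining genes of the shuttle did not pass: Cpt2, the inner-membrane transferase (amplitude 0.15, adjusted p = 0.0534), Slc25a20, the carnitine-acylcarnitine carrier (0.06, adjusted p = 0.611), and Mlycd, malonyl-CoA decarboxylase (0.14, adjusted p = 0.179, all in limma's test).

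The 14 mitochondrial β-oxidation genes were close to flat over the day. Their summed level lay between 1999 and 2527 FPKM in the 24 libraries, a ratio of 1.26, and each of the 14 had a coefficient of variation under 20% over all libraries (median 10.2%, range 6.73% to 18.7%). The median amplitude of the 14 was 0.06. Only Etfdh and Echs1 passed the test (30.6% of all genes did), and Echs1 lost the call with time as a factor. Etfdh, which passes electrons from the flavoprotein to ubiquinone, measured 102 and 112 FPKM at CT2 in WT and 70.8 and 84.5 FPKM at CT14, and 130 and 111 FPKM at CT2 in ΔRRE and 64.3 and 85.6 FPKM at CT14. All 4 libraries at CT2 lay above all 4 at CT14. Its amplitude was 0.29 (SE 0.04) with a peak at CT2.15 (adjusted p = 0.000107 in limma's test). Echs1, the short-chain enoyl-CoA hydratase, had an amplitude of 0.13 (SE 0.03, adjusted p = 0.0133 in limma's test), with 154 and 131 FPKM in WT at CT6 and 130 and 104 FPKM at CT18.

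The acyl-CoA dehydrogenases Acadl, Acadm and Acadvl had amplitudes of 0.06, 0.07 and 0.06 with adjusted p from 0.458 to 0.521, and the short-chain enzyme Acads had 0.17 (adjusted p = 0.0951, limma). Hadha and Hadhb, the subunits of the trifunctional protein, had 0.04 and 0.03. Hadh, Decr1, Acaa2, Etfa, Eci1 and Etfb also stayed above the threshold, with amplitudes from 0.04 to 0.16. Of the stretches of 75 bases in the longest Etfb transcript, 66.3% are also found in the annotated gene Gm45233, so the level of Etfb is uncertain. The 5 libraries with the highest Gm45233 (1.92 FPKM or more, against at most 1.37 in the others) were also the 5 with the lowest Etfb (at most 242 FPKM, against 300.2 FPKM or more), and 4 of these were ΔRRE and 1 was WT.

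In the peroxisomal set, 5 of 6 genes passed (30.6% of all genes did), with both phases present. With time as a factor, Decr2, Ehhadh and Hsd17b4 lost the call. Eci2, an enoyl-CoA isomerase, peaked at CT11.4 (amplitude 0.36, SE 0.08, adjusted p = 0.00296 in limma's test), with 125 and 120 FPKM in WT and 117 and 138 FPKM in ΔRRE at CT10 against 73.8 and 60.1 FPKM and 89.8 and 61.3 FPKM at CT2. Decr2, the peroxisomal dienoyl-CoA reductase, peaked at CT11.2 (amplitude 0.21, SE 0.06, adjusted p = 0.0147 in limma's test). Pex11a, which takes part in the division of peroxisomes, peaked later, at CT15.2 (amplitude 0.37, SE 0.08, adjusted p = 0.00470 in limma's test), with 49.0 and 30.6 FPKM in WT and 28.6 and 52.1 FPKM in ΔRRE at CT14. Ehhadh, the peroxisomal bifunctional enzyme, had the opposite phase (peak at CT0.018, amplitude 0.32, SE 0.08, adjusted p = 0.0134 in limma's test), with 136 and 114 FPKM in WT and 98.3 and 114 FPKM in ΔRRE at CT2 against 112 and 62.7 FPKM and 62.2 and 88.5 FPKM at CT14. Hsd17b4 followed it with an amplitude of 0.13 (adjusted p = 0.0418 in limma's test), a call lost in 12 of the 24 fits without 1 library. The thiolase Acaa1b, with 28.5% of its sequence shared with Acaa1a, had an amplitude of 0.31 (adjusted p = 0.0887 in limma's test).

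Of all 43 genes, Pdk4 had the largest rhythm. It encodes a kinase that inhibits pyruvate dehydrogenase and so spares glucose while fat is burned, and it lies at chr6:5483351-5496309 on the reverse strand. In WT it measured 8.44 and 10.2 FPKM at CT2, 3.23 and 0.738 at CT6, 0.455 and 0.242 at CT10, 2.12 and 0.966 at CT14, 1.56 and 2.66 at CT18, and 6.91 and 3.46 FPKM at CT22. In ΔRRE it measured 7.48 and 7.75 FPKM at CT2, 5.17 and 6.09 at CT6, 0.357 and 0.464 at CT10, 1.32 and 2.11 at CT14, 5.68 and 2.27 at CT18, and 5.63 and 18.3 FPKM at CT22. All 4 libraries at CT10 lay below every other library of the series. The highest group mean was 26.8 times the lowest in WT and 29.2 times in ΔRRE, and the shared wave had an amplitude of 1.83 (SE 0.23) with a peak at CT23.5 (SE 0.48 h, adjusted p = 1.3e-05 in limma's test). Pdk4 was thus lowest at the time when Cpt1a was highest.

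Of the acyl-CoA thioesterases, which are encoded side by side on chromosome 12 and release free fatty acids from acyl-CoA, Acot1 passed the test. It had 7.99 and 2.94 FPKM in WT at CT10 and 14.0 and 15.5 FPKM at CT22, and in ΔRRE 6.31 and 6.36 FPKM at CT10 and 12.9 and 16.8 FPKM at CT22. Its amplitude was 0.62 (SE 0.12) with a peak at CT20.8 (adjusted p = 0.00205 in limma's test). Acot3 had the largest amplitude after Pdk4, 0.72 (SE 0.31), but did not pass (adjusted p = 0.179 in limma's test). Its replicates 1 and 2 read 7.69 and 1.06 FPKM in WT at CT10 and 8.20 and 1.07 FPKM at CT14. Acot4 had 0.36 (SE 0.16, adjusted p = 0.189 in limma's test). Acot1 shared 15.5% of its sequence with other genes, mainly Acot2, and Acot3 shared 16.5%.

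Of the ketone body enzymes, Acat1, the mitochondrial acetoacetyl-CoA thiolase, passed with a small wave (amplitude 0.14, SE 0.03, peak at CT0.760, adjusted p = 0.00820 in limma's test), and Bdh1, which converts acetoacetate to β-hydroxybutyrate, did not (0.23, SE 0.08, adjusted p = 0.0609). None of the 5 ω-oxidation genes passed: the amplitudes were 0.66 for Cyp4a14, 0.42 for Cyp4a10, 0.24 for Cyp4a31, 0.23 for Cyp4a32 and 0.10 for Aldh3a2, with adjusted p from 0.155 to 0.637. Fabp1 and Fabp2, the liver and intestinal fatty acid binding proteins, had 0.16 and 0.04 (adjusted p = 0.449 and 0.932). Vnn1, a pantetheinase that is a sensitive PPARα target, had 0.13 (adjusted p = 0.841), and Angptl4, a secreted inhibitor of lipoprotein lipase, had 0.48 (SE 0.25, adjusted p = 0.298, all in limma's test).

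In WT alone, with 12 libraries, 8 of the 43 genes had an adjusted p under 0.05 (18.6%, against 10.3% of all genes). These were Pdk4, Cpt1a, Eci2, Decr2, Crat, Creb3l3, Etfdh and Angptl4. With the replicate number as a block, Creb3l3 and Etfdh lost the call. In ΔRRE alone it was 4 genes (9.30%, against 4.57% of all genes), namely Acot1, Pdk4, Acsl1 and Etfdh. At an unadjusted p under 0.05 the counts were 15 genes in WT (34.9% against 27.6%) and 12 in ΔRRE (27.9% against 22.6%). The calls of Creb3l3 (adjusted p = 0.0492), Etfdh (0.0471), Crat (0.0417) and Decr2 (0.0293) in WT did not hold in 10, 11, 9 and 6 of the 12 fits without 1 WT library, while those of Pdk4, Cpt1a, Eci2 and Angptl4 were kept in all 12. Without the filter on low genes the call in WT held for Cpt1a alone, and with time as a factor for Cpt1a and Pdk4. The count in WT fell to 4 without CT10 replicate 2 and without either library of CT22, and to 5 without either library of CT2 or CT18 or without CT14 replicate 1. In ΔRRE the calls of Acot1 and Pdk4 were kept in all 12 such fits, and those of Acsl1 and Etfdh were lost in 2 and 3. Without the filter the call in ΔRRE held for Acot1 alone, and with time as a factor, of these 4, for Pdk4 alone.

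By the study's own criteria, in which a p under 0.3 from the cosine fit stood in for BIO_CYCLE, a highest mean over 1.5 times the lowest and the largest SD within 1.5 times their difference, 13 genes were rhythmic in WT (30.2%, against 37.0% of all genes) and 18 in ΔRRE (41.9%, against 35.4%). Of the 43 genes, 10 were rhythmic in both, namely Ppara, Acsl1, Cpt1a, Crat, Eci2, Pex11a, Acot1, Acot3, Acot4 and Pdk4. The share of all genes rhythmic in both was not counted, so the size of this overlap cannot be judged. None of the mitochondrial β-oxidation genes met these criteria in WT, and Etfdh and Eci1 met them in ΔRRE. With the replicate block the counts in WT and ΔRRE were 17 and 18, given here without the share of all genes.

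Whether a rhythm differed between the genotypes was tested directly. Over all genes, 1 passed (0.00889%), which was Arntl, and 0 of the 43 genes did, with a smallest adjusted p of 0.99993 in limma's test. At an unadjusted p under 0.05 it was 2 of the 43 (4.65%), against 2.84% of all genes. Those were Bdh1 and Hadha. Bdh1 in WT had 126 and 111 FPKM at CT10 and 51.4 and 60.4 FPKM at CT22, and in ΔRRE 72.2 and 78.4 FPKM at CT10 and 70.3 and 79.5 FPKM at CT22, so that the ΔRRE libraries lay between the WT extremes at both times. Its amplitude was 0.42 (SE 0.11) in WT and 0.05 (SE 0.07) in ΔRRE (limma p = 0.0295, exact permutation p = 0.0558). The ΔRRE amplitude ran from 0.012 without CT6 replicate 1 to 0.10 without CT14 replicate 2. Hadha had an amplitude of 0.08 in WT, with a peak at CT11.0, and 0.15 in ΔRRE, with a peak at CT21.6 (limma p = 0.0275, exact permutation p = 0.0339, two-sided over all divisions of the libraries within times). Decr2 followed by p, with amplitudes of 0.32 in WT and 0.11 in ΔRRE (limma p = 0.149, exact permutation p = 0.178).

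Among the 15 genes with a shared wave, the amplitude was larger in WT for 8 and in ΔRRE for the others, and the fitted peaks of the genotypes were at most 3.05 h apart (median 0.432 h later in ΔRRE). Pdk4 had amplitudes of 1.79 (SE 0.32) in WT and 1.87 (SE 0.32) in ΔRRE with peaks at CT23.4 and CT23.7, and Cpt1a 0.63 (SE 0.08) and 0.53 (SE 0.17) with peaks at CT10.5 and CT10.7. Angptl4 passed in WT (amplitude 0.88, SE 0.16, peak at CT11.0, adjusted p = 0.0134 in limma's test) and not in ΔRRE (0.16, SE 0.43). In ΔRRE its libraries read 35.0 and 38.2 FPKM at CT10 but also 29.8 and 32.1 FPKM at CT22, where WT read 6.95 and 8.22 FPKM, and at CT2 and CT6 its replicates were far apart, with 23.8 and 5.75 FPKM and 26.9 and 4.45 FPKM. The test of the difference in rhythm did not separate the genotypes (limma p = 0.266, exact permutation p = 0.255).

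The mean level over the day was compared with 1 term for every time in the model. No gene passed the adjusted threshold (0% of all genes, with limma's adjusted p at 0.332 or above), and so 0 of the 43 did. At an unadjusted p under 0.05 there were 7 of the 43 (16.3%, against 8.91% of all genes), 6 higher in ΔRRE (7.16% of all genes were) and 1 lower (1.75%). The median log2 fold change, ΔRRE over WT, was 0.05 over the 43 genes (0.016 without WT CT14 replicate 2, and up to 0.071 without another library) and 0.04 over all genes, and 29 genes (67.4%) were on the higher side against 65.5% of all genes. This background moved with the scaling. Once libraries were rescaled by median-of-ratios factors, the medians were 0.012 and −0.0016, 53.5% of the 43 and 49.5% of all genes were on the higher side, and 3 higher (Cyp4a32, Cyp4a31 and Pdk4) and 1 lower (Aldh3a2) of the 43 had an unadjusted p under 0.05, against 3.89% and 3.16% of all genes.

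**Figure D3:**
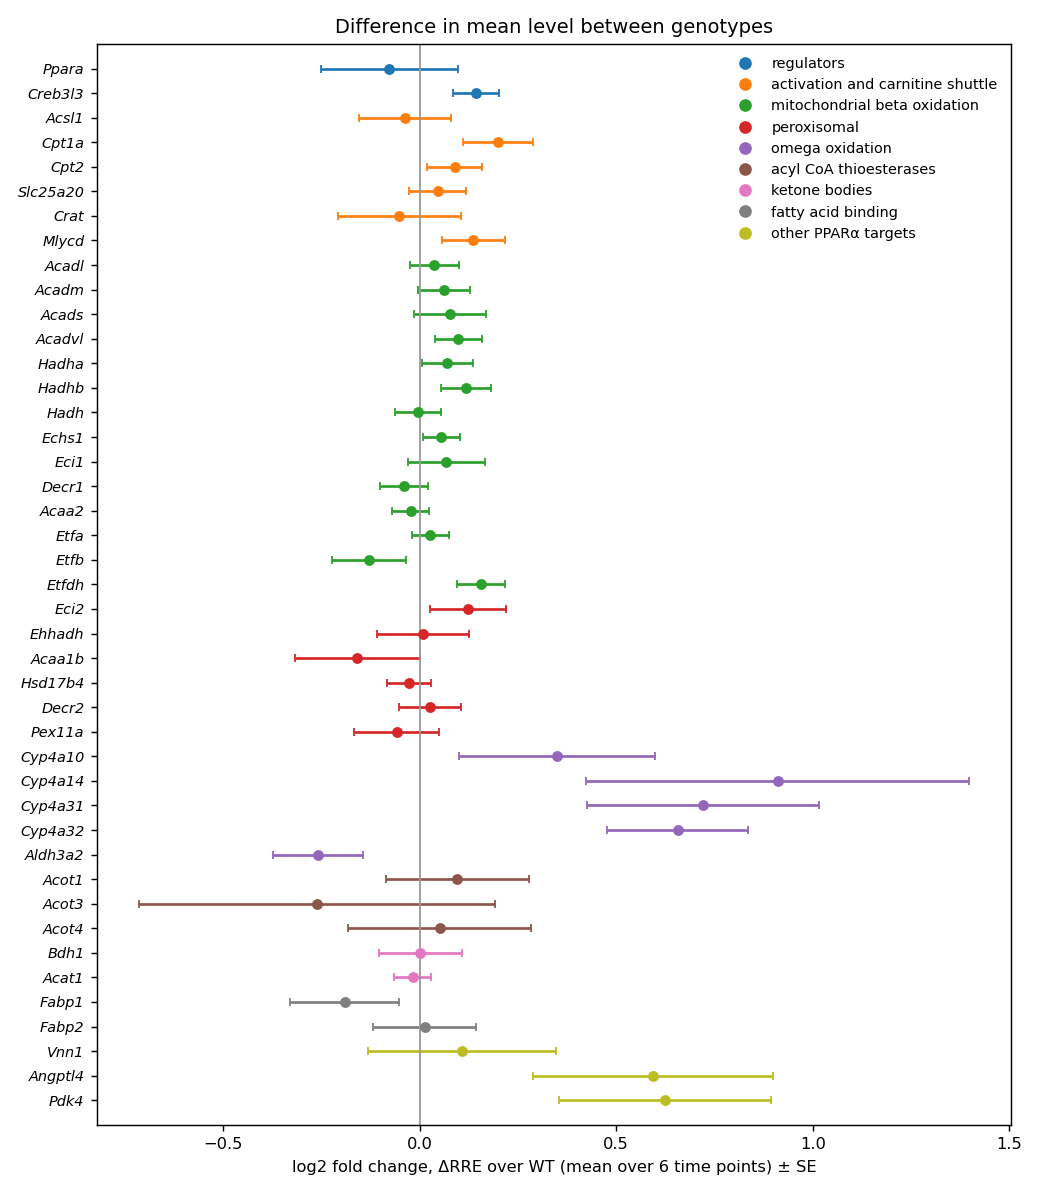
The log2 fold change of each of the 43 genes, ΔRRE over WT as a mean over 6 time points, with its SE (horizontal axis), coloured by role. The points of the 14 mitochondrial genes lie near 0, and the Cyp4a genes, Angptl4 and Pdk4 lie furthest to the right.

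The 4 Cyp4a genes, which lie next to each other on chromosome 4 between 115486200 and 115621602, had the highest fold changes together with Angptl4 and Pdk4. Cyp4a32 in WT ran from 9.75 to 27.6 FPKM with a median of 17.2, and in ΔRRE from 15.5 to 61.2 FPKM with a median of 25.9. The highest ΔRRE libraries were those of CT22, with 48.9 and 61.2 FPKM against 15.7 and 24.1 FPKM in WT, and replicate 1 of CT6, with 52.4 FPKM. Both ΔRRE libraries lay above both WT libraries at CT10 and CT22, and the ranges overlapped at the other times. Its log2 fold change was 0.66 (SE 0.18, limma p = 0.00150, adjusted p = 0.332, exact permutation p = 0.00403). Cyp4a31 had 0.72 (SE 0.30, adjusted p = 0.475, exact permutation p = 0.0415), Cyp4a14 0.91 (SE 0.49, adjusted p = 0.614, exact permutation p = 0.109) and Cyp4a10 0.35 (SE 0.25, adjusted p = 0.730, exact permutation p = 0.220). These genes are close copies: 30.4% of the sequence of Cyp4a32, 19.1% of that of Cyp4a10 and 13.9% of that of Cyp4a31 occur in other genes, so reads could be shared between them, whereas none of that of Cyp4a14 does. Aldh3a2, which oxidises the fatty aldehydes formed next, was the one lower gene with an unadjusted p under 0.05, with a median of 93.0 FPKM in WT and 87.1 FPKM in ΔRRE and a log2 fold change of −0.26 (SE 0.11, adjusted p = 0.527, exact permutation p = 0.0438). Its lowest values were 49.99 FPKM in ΔRRE CT14 replicate 1 and 55.01 FPKM in ΔRRE CT10 replicate 1, the libraries with the highest erythroid sums. Their partners read 89.94 and 84.25 FPKM, and the part of these libraries in the change was not tested.

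Pdk4 had a log2 fold change of 0.62 (SE 0.27, adjusted p = 0.516, exact permutation p = 0.0432), with a median of 2.39 FPKM in WT and 5.40 FPKM in ΔRRE and ranges that overlapped. Etfdh and Creb3l3 had small changes with little spread, 0.16 (SE 0.06, adjusted p = 0.465, exact permutation p = 0.0218) and 0.14 (SE 0.06, adjusted p = 0.472, exact permutation p = 0.0190), and Cpt1a had 0.20 (SE 0.09, adjusted p = 0.527, exact permutation p = 0.0456). After rescaling, none of these 3 genes had an unadjusted limma p under 0.05. Ppara itself had −0.08 (SE 0.17, adjusted p = 0.942, exact permutation p = 0.688). For the mitochondrial genes the fold changes lay between −0.13 (Etfb) and 0.16 (Etfdh). Reads of Etfb could be shared with Gm45233, and the part of this in its fold change was not tested.

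The libraries of a group differed widely in Cyp4a14. In WT its replicate 1 and 2 read 258 and 45.0 FPKM at CT2, 420 and 78.7 at CT6, 180 and 23.2 at CT10, 239 and 13.4 at CT14, 105 and 34.4 at CT18, and 198 and 92.8 FPKM at CT22. In ΔRRE they read 524 and 63.5 FPKM at CT2, 346 and 130 at CT6, 168 and 139 at CT10, 83.0 and 54.7 at CT14, 348 and 179 at CT18, and 248 and 274 FPKM at CT22. In WT replicate 1 was the higher one at all 6 times, as it was for 2.38% of all genes, while 2.27% had replicate 2 higher at all 6. Replicate 1 was higher at all 6 times for 9 of the 43 genes (20.9%), namely Acadl, Acadm, Hadh, Ehhadh, Cyp4a10, Cyp4a14, Aldh3a2, Acot3 and Acot4, and 0 had replicate 2 higher throughout. Acot4 moved with Cyp4a14, with the same replicate higher in 12 of 12 groups, Acot3 in 11, Crat, Acadl and Acadm in 10, and 8 genes (Cyp4a10, Acot1, Mlycd, Hadhb, Echs1, Etfa, Ehhadh and Aldh3a2) in 9. Over all genes 1.16% had the same replicate higher in at least 11 groups 4.38% in at least 10 and 11.6% in at least 9; all of these pairs come from the same libraries. Single libraries stood out as well: WT CT14 replicate 2 held the lowest value of 10 of the 43 genes (6.56% of all genes), among them all 4 Cyp4a genes and Vnn1, and ΔRRE CT14 replicate 1, one of the libraries with high erythroid genes, that of 8 (4.64%). WT CT10 replicate 1 held the highest value of 10 (6.48%). Without WT CT14 replicate 2 the log2 fold change of Cyp4a14 was 0.71 and that of Cyp4a10 0.22, and without its partner they were 1.19 and 0.51.

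**Figure D4:**
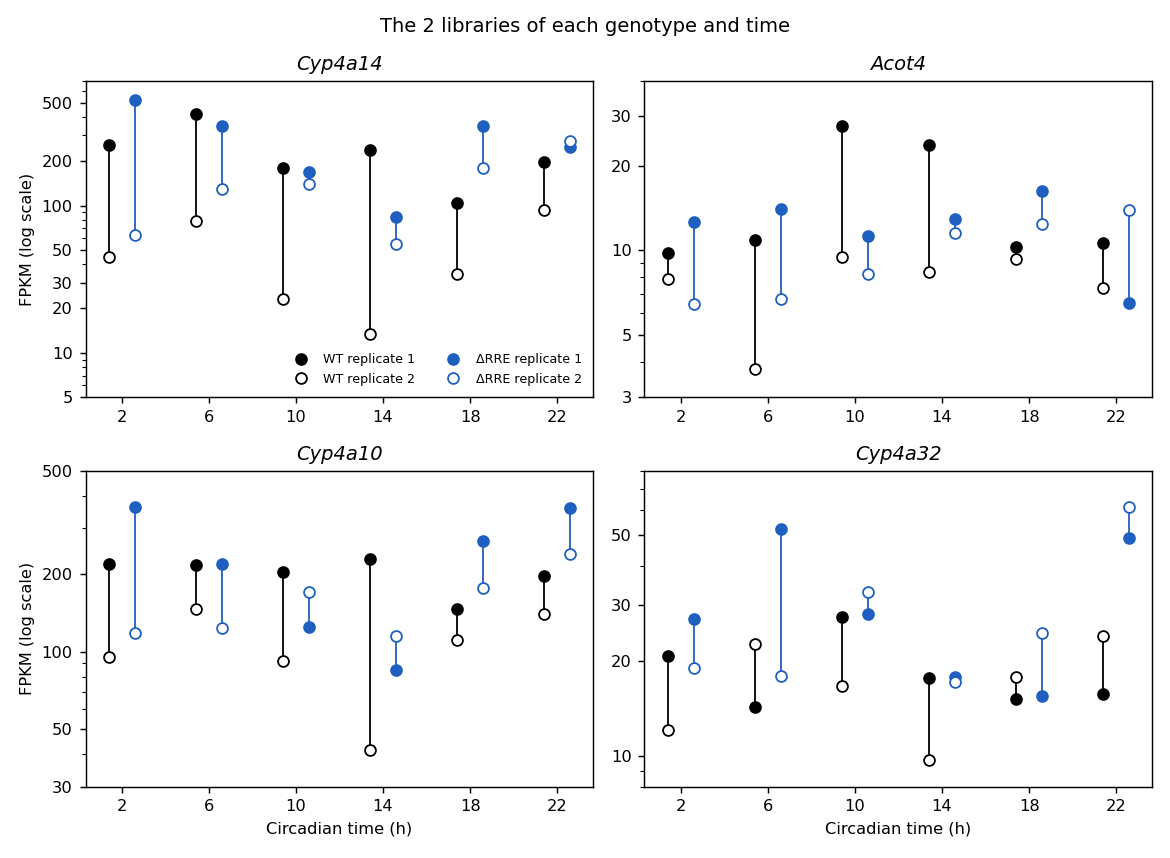
FPKM (vertical axes, log scale) of Cyp4a14, Acot4, Cyp4a10 and Cyp4a32 in each library against circadian time (horizontal axes, h); a line joins the 2 libraries of a genotype and time, filled for replicate 1 and open for replicate 2. In Cyp4a14 and Acot4 the filled WT point is above the open one at all 6 times, and the gap between replicates is often larger than that between the genotypes.

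Other genes of the pathway, beyond the 43, were taken from fixed lists. Of 81 further PPARα targets and enzymes 78 were found by name and 71 tested, and 30 of these had a shared wave, 14 with a peak from CT6 to CT18 and 16 outside it. Of 22 receptors and co-regulators 13 did, 8 and 5 by the same windows, and of all genes 30.6% did. Crot, the peroxisomal carnitine octanoyltransferase, had the smallest p (amplitude 0.86, SE 0.09, peak at CT3.38, adjusted p = 4.61e-07 in limma's test), with 238 and 233 FPKM in WT and 316 and 216 FPKM in ΔRRE at CT2 against 64.9 and 66.8 FPKM and 96.9 and 96.2 FPKM at CT14. Hacl1, which shortens branched chains in peroxisomes, had 0.81 (SE 0.08) at CT23.9, the nuclear receptor Ppard 1.38 (SE 0.14) at CT22.6, Lpin1, a phosphatidate phosphatase that acts as a PPARα coactivator, 1.38 (SE 0.16) at CT12.1, and Acat3, a cytosolic thiolase, 0.37 (SE 0.04) at CT2.51.

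In level, 0 genes of these lists passed the adjusted threshold; at an unadjusted p under 0.05, 7 of the 71 targets were higher and 1 lower in ΔRRE, and 2 of the 22 receptors and co-regulators were higher and 1 lower, against 7.16% and 1.75% of all genes. The smallest p were those of Crot (log2 fold change 0.28, SE 0.08, adjusted p = 0.343, exact permutation p = 0.00549), Lpl, the lipoprotein lipase that ANGPTL4 inhibits (0.70, SE 0.22, adjusted p = 0.395, exact permutation p = 0.0132), and Rxrb, a partner receptor of PPARα (0.17, SE 0.06, adjusted p = 0.408, exact permutation p = 0.00527). Lpl ran from 2.70 to 17.3 FPKM in WT and from 5.63 to 19.2 FPKM in ΔRRE, with summed adipocyte markers of at most 3.17 FPKM.

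Genes that respond to feeding were listed as well. Of 7 fasting-induced genes tested, 3 were higher in ΔRRE and 0 lower at an unadjusted p under 0.05, and of 11 refeeding-induced genes 0 were higher and 2 lower, with 0 past the adjusted threshold in either list. Of all genes, 7.16% were higher and 1.75% lower at that p. Igfbp1, an insulin-repressed binding protein, had a log2 fold change of 1.79 (SE 0.49, adjusted p = 0.332, exact permutation p = 0.00369), and its ΔRRE libraries read 96.0 and 42.4 FPKM at CT10 and 60.7 and 166 FPKM at CT22 against 10.5 and 13.5 FPKM and 13.9 and 1.69 FPKM in WT. The gluconeogenic G6pc had 0.71 (SE 0.18, adjusted p = 0.332, exact permutation p = 0.00154) and Pck1 0.69 (SE 0.21, adjusted p = 0.343, exact permutation p = 0.0102), and the lipogenic Thrsp had −0.83 (SE 0.24, adjusted p = 0.343) and Fasn −0.51 (SE 0.21, adjusted p = 0.475 in limma's test). At CT22 both ΔRRE libraries of Angptl4 and Cyp4a32 also lay above both WT libraries, and the part of feeding state in the levels above was not tested.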

How the data were processed

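The submitters' processing notes name Trimmomatic 0.39, HISAT2 2.1.0 and StringTie 1.3.5 with the mm10 build; per the labels, poly(A)-tailed RNA was made into directional libraries. The authors deposited FPKM values of each gene in each library, without pooling, and no counts were used here. FPKM summed to between 554170 and 624746 per library and were not scaled to a common total; depth is unknown here. No pair of libraries had more than 0.0711% identical values. The table of the whole series was not used.

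The members and lists were chosen with earlier results of these data known. On log2(FPKM + 0.1) of the 11244 genes that averaged 1 FPKM or more, models were fitted with limma 3.58.1 (R 4.3.3) with an intensity trend, adjusted by Benjamini-Hochberg over all genes: a shared 24 h cosine and sine with a genotype term, the same wave per genotype, its difference between genotypes, and the genotype term with time as a factor. Fold changes are on that scale and understate those of low genes. For single genes, exact two-sided permutation tests enumerated the 23328 ways to split the 4 libraries of every time into 2 and 2. Their p-values are unadjusted. For genes named by a small limma p or after their values were seen, they retest the same difference in the same libraries and are not independent of that choice. BIO_CYCLE was not run. The limma p-values weigh a difference against the spread between these libraries, moderated over all genes. Exact ones rank it among the divisions of the libraries within times. Named in full were Ppara, Creb3l3, up to 12 genes with a shared wave by p, the 5 largest amplitudes, the 5 smallest level p, the 3 smallest rhythm difference p, and 5 and 3 genes of the pathway lists; others were named by role, and the feeding, replicate and library values were chosen after they were seen. Sequence shared between genes is the percent of the 75-base stretches of a gene's longest GENCODE M21 transcript that also occur in another gene. These stretches are shorter than the study's reads. Of 54733 identifiers, 54528 were found in that annotation. Coordinates are on GRCm38, and promoter sequences are from RefSeq. The steps were tested on simulated data. Figures used matplotlib 3.10.9, and Python 3.11.15, NumPy 2.4.6 and pandas 2.3.3 did the rest.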

Additional observations from a re-analysis of the deposited data

How the results depend on the processing

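Of the fold changes followed gene by gene through the alternatives, none reversed. Those of Ppara, Etfb, Thrsp, Fasn and the globin genes, among others, were not followed in this way. After rescaling, the number of the 43 genes on the higher side fell from 29 to 23, so some fold changes did turn. The counts of the 43 genes with an adjusted difference in rhythm or in level stayed at 0 in every alternative. The count with a shared wave was 13 without a filter and with a limma prior without trend, 10 with time as a factor and 12 with separate waves. Each count takes in any of the 43 genes that passed under that alternative, also one outside the 15 named above. The counts of the alternatives, here and below, are given without the share of all genes called. A fall in them is therefore not shown to be particular to these genes. The count in WT alone was 1 without a filter, 5 with the prior without trend and 2 with time as a factor, against 8; in ΔRRE alone it was 1 without a filter and 2 with time as a factor, against 4. Leaving out 1 library at a time gave 13 to 17 genes with a shared wave, 4 to 7 in WT, 3 to 6 in ΔRRE, 13 to 18 by the study's criteria in WT, 14 to 20 in ΔRRE, and 0 to 0 for the difference in rhythm and in level.

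The replicate numbers of the labels were not shown to pair the libraries: the deviations of same-numbered libraries correlated from −0.138 to 0.305 over 66 pairs of groups (20 above 0.1), and among the WT groups alone the median was 0.103 over 15 pairs (8 above 0.1). With the replicate block, 15 genes had a shared wave, 6 passed in WT, 4 in ΔRRE, 17 and 18 by the study's criteria, and 0 differed in rhythm or level; Creb3l3 and Etfdh lost their call in WT. With 2 libraries a group and no read counts, small differences were not resolved. The values of genes that share sequence could depend on how the authors' counting assigned their reads, which was not examined.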
